A study of Homo sapiens with 24 samples.

Results

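The albumin gene family was followed in HepG2, a human hepatocellular carcinoma cell line, by taking the entries of the gene table whose symbol is ALB, AFP, AFM or GC. All 4 members were found among 34618 genes. ALB encodes serum albumin, AFP alpha-fetoprotein, AFM afamin, a vitamin E binding plasma protein, and GC the vitamin D binding protein. These genes arose from a common ancestor by duplication and encode carrier proteins that hepatocytes secrete into plasma. AFP is the main family product of the fetal liver, is replaced by albumin after birth and is made again by many liver tumours, HepG2 among them.

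All groups came from HepG2 cells with a stable, puromycin-selected lentiviral short hairpin RNA: a non-specific control (shCtrl), one against SETD2 (shSETD2) or one against METTL14 (shMETTL14). The SETD2 protein places trimethyl marks on lysine 36 of histone H3 along transcribed genes, and METTL14 belongs to the complex that adds N6-methyladenosine (m6A) to RNA. Total RNA was sequenced from untreated cells (0 h) and after 1, 3 and 6 h with 5 µg/mL of the transcription inhibitor actinomycin D, with 2 biological replicates per line and time per the series' design text, 24 libraries in all. The sources used here do not say whether a line is 1 clone or how many hairpins were used per gene, so a difference between lines is a difference between these selected cultures. The comparisons ask how each line differs from shCtrl before the drug, and how the RNA changes once synthesis is blocked.

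Library totals ran from 18.3 to 31.4 M counts, so that 3 counts corresponded to 0.0955 to 0.164 CPM, which are counts scaled to the size of the library. At 0 h, SETD2 stood at 86.0 ± 6.10 CPM in shSETD2 against 130 ± 1.33 in shCtrl (SD, n = 2; log2 fold change -0.59, adjusted p = 1.2e-07, edgeR quasi-likelihood test). METTL14 stood at 14.5 ± 0.762 CPM in shMETTL14 against 29.7 ± 0.532 in shCtrl (log2 fold change -1.03, adjusted p = 1.26e-08), and was higher in shSETD2 than in shCtrl (0.37, adjusted p = 0.0026). All 9 hepatocyte lineage markers on the list had counts in every library. PTPRC, DCN and KDR, which mark blood cells, fibroblasts and endothelium, had 0 counts in all 24 libraries, but other markers of those cells had counts in every library: PDGFRB (7.59 to 48.9 CPM) and COL1A1 (4.03 to 19.1) of fibroblasts, CD14 (0.790 to 3.95), CD3D (0.126 to 2.60) and CD79A (0.0391 to 0.717) of blood cells, and CDH5 (0.0934 to 2.04) of endothelium. Of the remaining markers of those cells, COL1A2 (fibroblasts) had 0 counts in 23 and HBB (blood) in 19 of the 24 libraries. COL3A1 (fibroblasts) reached at most 0.237 CPM and VWF (endothelium) at most 1.01 CPM. In bulk RNA, fewer cells that make a transcript and less of it per cell cannot be told apart. No spike-in value was analysed here, so each level is relative to the other RNA of its library.

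ALB (ENSG00000163631), AFP (ENSG00000081051) and AFM (ENSG00000079557) lie in a row on the plus strand of chromosome 4 in the deposited annotation, whose build is GRCh37 per the submitters' processing notes. ALB spans 74262831 to 74287129, AFP 74296855 to 74321891 and AFM 74347400 to 74369691. The gap between ALB and AFP is 9.725 kb and that between AFP and AFM 25.5 kb. GC (ENSG00000145321) lies 1593 kb from ALB on the minus strand, at 72607410 to 72669758. No other entry of the table overlaps any of the 4 genes.

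The 250 bases before the transcription start are shown for the 3 members with an entry in the RefSeq promoter table (GRCh38.p14), because ALB and AFP, the abundant members, share a promoter-proximal element there that AFM also carries. Capitals mark the letters GTTAAT, found in all 3, then TATAAA, which many promoters hold just before the start, CCAAT or its reverse complement ATTGG, and TTGCAA (the core of a C/EBP site), searched on both strands. The ALB sequence is chr4:73404037-73404286, the AFP sequence chr4:73435971-73436220 and the AFM sequence chr4:73481495-73481744, all on the plus strand.
ALB: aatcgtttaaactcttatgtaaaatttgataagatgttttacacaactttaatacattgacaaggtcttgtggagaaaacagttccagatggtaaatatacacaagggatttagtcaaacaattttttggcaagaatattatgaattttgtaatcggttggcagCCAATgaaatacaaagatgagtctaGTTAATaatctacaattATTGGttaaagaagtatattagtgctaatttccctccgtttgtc
AFP: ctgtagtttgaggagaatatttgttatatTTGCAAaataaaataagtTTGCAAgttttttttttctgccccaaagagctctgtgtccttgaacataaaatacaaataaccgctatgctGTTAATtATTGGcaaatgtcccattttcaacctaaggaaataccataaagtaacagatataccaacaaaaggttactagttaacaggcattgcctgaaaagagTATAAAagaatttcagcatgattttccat
AFM: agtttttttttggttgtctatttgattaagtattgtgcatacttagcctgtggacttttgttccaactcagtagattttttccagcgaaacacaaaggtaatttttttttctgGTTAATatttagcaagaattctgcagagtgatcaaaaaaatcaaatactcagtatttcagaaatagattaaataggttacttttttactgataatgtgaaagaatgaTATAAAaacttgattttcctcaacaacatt
GTTAAT was present in all 3 sequences, at bases -61 to -56 of ALB, -132 to -127 of AFP and -137 to -132 of AFM, counted from the transcription start. It occurred in 6.23% of 35114 RefSeq promoters of the same length. TATAAA stood at base -29 of AFP and -30 of AFM, and was not among these letters of ALB (10.7% of promoters). CCAAT occurred at -86 and, as ATTGG, at -44 of ALB and at -125 of AFP, where it follows GTTAAT after 1 base (32.0% of promoters). AFP alone of the 3 held TTGCAA, at -221 and -203 (4.73% of promoters), and TGTTTAC, the core of a FOXA site, was in none (2.98% of promoters). The shares of G and C were 30.0% in ALB, 31.6% in AFP and 28.0% in AFM, against a median of 58.0% over all promoters. The percentages of promoters given above were not matched for this. They are therefore not the shares to be expected of sequences so poor in G and C. A match to such letters is a description of the sequence and not evidence that a factor binds.

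METTL14 acts in a complex that methylates adenosine, often within the letters GGACT, so the coding sequences were searched for them (GENCODE v29, GRCh38, the longest principal transcript of each gene). ALB (1830 bases), AFP (1830 bases) and AFM (1800 bases) held 0 copies, as did 28.2% of 19853 genes. GC held 2 copies in 1425 bases, or 1.40 per kb against a median of 0.966 per kb over all genes. The copies in GC are shown with 12 bases on each side, with GGACT in capitals and the position of its first base in the coding sequence in the name.
GC at 114: tctgggaaaggaGGACTtcacatctctgt
GC at 1058: aactaagcagaaGGACTcatcttccggaa
The m6A mark itself was not analysed here, and untranslated regions were not searched.

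ALB and AFP were among the most abundant transcripts of the cells and AFM and GC were near the limit of detection. On the deposited RPKM scale (reads scaled to exon length and library total), AFP ranked 11 and ALB 16 of 34618 genes in shCtrl at 0 h. Their ranks were 10 and 13 in shSETD2, and 13 and 15 in shMETTL14. AFM ranked 12848, 13162 and 14397 in shCtrl, shSETD2 and shMETTL14, and GC 19064, 13270 and 19225. The 4 members together took 1.77% to 2.81% of all counts in a shCtrl library, 3.83% to 5.95% in shSETD2 and 1.95% to 3.07% in shMETTL14. Per length, AFP exceeded ALB in every line at 0 h, by 2.28-fold in shCtrl, 1.12-fold in shSETD2 and 1.28-fold in shMETTL14, as ratios of the mean RPKM.

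**Figure D1:**
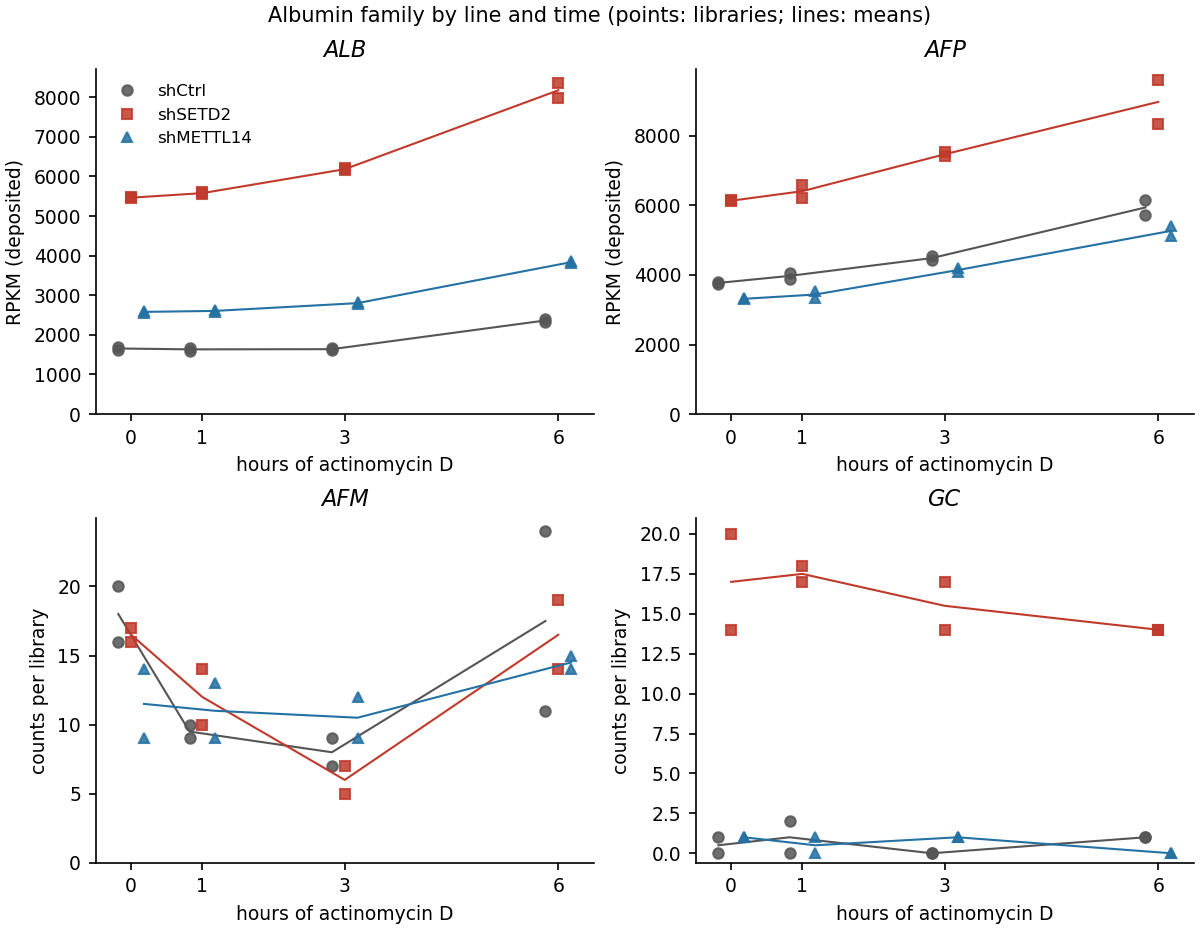
Level of each family member against hours of actinomycin D, as deposited RPKM for ALB and AFP and as counts per library for AFM and GC, with 1 point per library and lines through the means of 2. ALB was highest in shSETD2 and lowest in shCtrl at each time, AFP was highest in shSETD2, AFM stayed between 5 and 24 counts in all lines, and GC reached 14 to 20 counts in shSETD2 and at most 2 in the other lines.

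ALB was higher in both knockdown lines than in shCtrl before the drug, and AFP was higher in shSETD2 and lower in shMETTL14. ALB RPKM at 0 h was 1630 and 1684 in the 2 shCtrl libraries, 5474 and 5452 in shSETD2, and 2600 and 2560 in shMETTL14. Both shSETD2 libraries lay above both shMETTL14 libraries, which lay above both shCtrl libraries, with no overlap. In CPM scaled by TMM, the trimmed mean of M values, which sets most genes equal between libraries, ALB stood at 17912 ± 91.8 in shSETD2, 7307 ± 85.8 in shMETTL14 and 4873 ± 98.8 in shCtrl (SD, n = 2). ALB was 3.68-fold higher in shSETD2 than in shCtrl (log2 fold change 1.88, SE 0.0348, adjusted p = 1.31e-20, edgeR) and higher in shMETTL14 too (log2 0.58, SE 0.0339, adjusted p = 3.11e-12). Between the knockdown lines it was 2.45-fold higher in shSETD2 (log2 1.29, adjusted p = 3.54e-18).

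AFP RPKM at 0 h was 3743 and 3796 in shCtrl, 6141 and 6124 in shSETD2, and 3294 and 3331 in shMETTL14. Here the order of the knockdown lines around shCtrl differed from that of ALB, with shSETD2 above and shMETTL14 below it and no overlap between any of the 3 pairs. AFP was 1.81-fold higher in shSETD2 than in shCtrl (19428 ± 82.2 against 10715 ± 76.6 CPM; log2 0.86, SE 0.0520, adjusted p = 5.79e-12). It was lower in shMETTL14 (9066 ± 62.8 CPM; log2 -0.24, SE 0.0517, adjusted p = 0.000523). Between the knockdown lines AFP was 2.14-fold higher in shSETD2 (adjusted p = 7.78e-14).

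GC RNA was detected above a few counts in shSETD2 alone. GC had 20 and 14 counts in the 2 shSETD2 libraries at 0 h, 1 and 0 in shCtrl, and 1 and 1 in shMETTL14. Both shSETD2 libraries were above all 4 others, while shCtrl and shMETTL14 overlapped. The count ratio of shSETD2 to shCtrl, relative to the scaled library totals, was 34.3 with a 95% exact counting interval of 5.76 to 1396 (34 against 1 count), and 19.1 (4.90 to 164) to shMETTL14 (34 against 2 counts). These intervals, and those given below for GC, cover counting error only. They describe the counts and are not used as a test between lines. GC passed the filter on low counts only through its shSETD2 libraries, so no p is given for its differences from shSETD2 and it enters no count of members that passed in those comparisons. Over all 4 times, GC summed to 128 counts in shSETD2 and to 5 in each of the other lines, a ratio to shCtrl of 26.4 (11.04 to 82.8). The libraries of the 4 times were added together for this interval, so it leaves out the spread between libraries and times.

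For AFM no difference between lines passed the test at 0 h with all libraries. AFM had 16 and 20 counts in shCtrl, 17 and 16 in shSETD2, and 9 and 14 in shMETTL14. The counts of shSETD2 lay within those of shCtrl (adjusted p = 0.824), whereas in RPKM both shSETD2 libraries (0.267 and 0.306) lay below both shCtrl libraries (0.326 and 0.357). The shMETTL14 values lay below both others (log2 -0.79 against shCtrl, SE 0.359, adjusted p = 0.0752). Without replicate 2 of shMETTL14 at 0 h that difference was -1.32 and passed (adjusted p = 0.025), and over the 4 libraries left out in turn it ran from -1.32 to -0.52. The 95% interval of that difference ran from -1.54 to -0.04 on the log2 scale, so a large or a slight difference could not be told apart at this depth. Over all 4 times AFM summed to 106 counts in shCtrl, 102 in shSETD2 and 95 in shMETTL14.

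At 0 h, ALB and AFP passed the test between shSETD2 and shCtrl and AFM did not, where 40.6% of the 14887 genes tested did. ALB and AFP were also the members that passed between shMETTL14 and shCtrl, where 48.1% of genes did, and, GC left aside, between the knockdown lines, where 52.2% did. The comparisons with shCtrl share its libraries. Scaling by library size alone moved the median log2 difference of all genes between shSETD2 and shCtrl from 0.02 to -0.14, and the share of higher genes among those that passed from 53.3% to 28.2%. Under it ALB was 1.72 and AFP 0.70 above shCtrl in shSETD2, and in shMETTL14 they stood at 0.64 and -0.19 on the log2 scale, with both still past the threshold.

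The amount of ALB relative to AFP within a library does not depend on how libraries are scaled. At 0 h the ALB to AFP count ratio was 0.451 and 0.459 in shCtrl, 0.923 and 0.921 in shSETD2, and 0.817 and 0.795 in shMETTL14. In both knockdown lines the ratio was well above that of shCtrl, and the libraries of the 3 lines did not overlap at any of the 4 times. Over the 4 times the ratio was 2.17-fold higher in shSETD2 than in shCtrl, 1.82-fold higher in shMETTL14 than in shCtrl, and 1.19-fold higher in shSETD2 than in shMETTL14. Each of these 3 differences had the same direction at 4 of 4 times and an exact two-sided permutation p of 0.00154, the smallest that 1296 permutations within times can give (adjusted p = 0.00173 over 9 ratio comparisons). In shSETD2 both genes stood higher than in shCtrl, whereas in shMETTL14 ALB was higher and AFP lower.

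**Figure D2:**
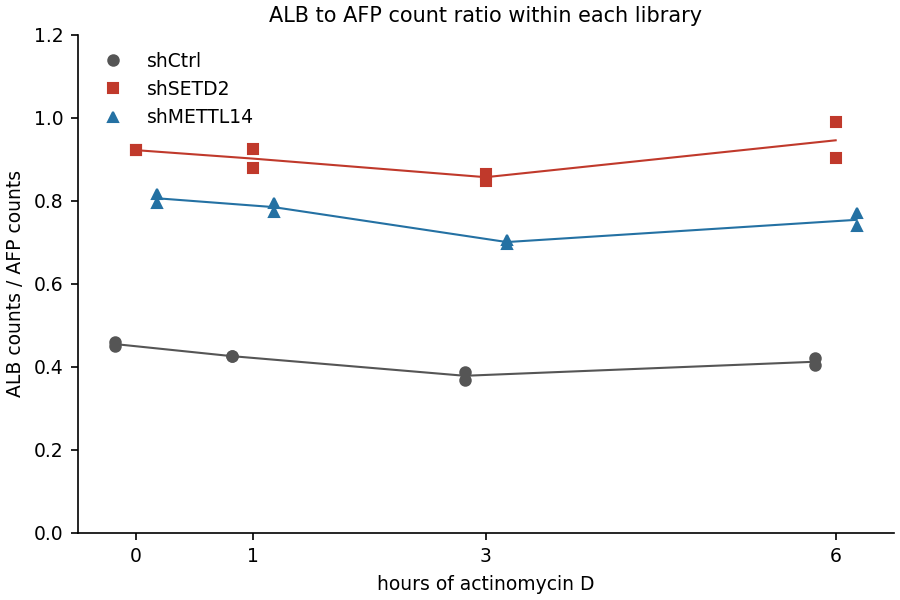
Ratio of ALB counts to AFP counts within each library (vertical axis, no unit) against hours of actinomycin D, with 1 point per library and lines through the means of 2. The shCtrl libraries sit between 0.369 and 0.459, the shMETTL14 libraries between 0.695 and 0.817 and the shSETD2 libraries between 0.848 and 0.989.

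The ratio of ALB to AFM counts gave 3.74-fold for shSETD2 to shCtrl, 1.81-fold for shMETTL14 to shCtrl and 2.06-fold for shSETD2 to shMETTL14, each in 4 of 4 times (exact permutation test, adjusted p = 0.00173 for each). ALB was therefore higher relative to AFM in both knockdown lines. For ALB to GC, with 0.5 added to each count, the log2 ratio in shSETD2 minus that in shCtrl was -2.29, and with 2 added it was -0.96. GC was at 0 in 4 of the 8 shCtrl libraries, so the size of this difference is set by the added count and nothing is read from it. Between shMETTL14 and shCtrl the log2 difference was 0.69 with 0.5 added (exact permutation test, adjusted p = 0.202) and 0.77 with 2 added (adjusted p = 0.00617). GC had at most 2 counts in any library of these lines. That difference therefore rests on ALB and the added count, and nothing is read from it about GC.

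After 6 h of actinomycin D the lines kept the order of ALB and AFP seen before the drug. ALB RPKM was 2329 and 2398 in shCtrl, 7981 and 8366 in shSETD2, and 3806 and 3864 in shMETTL14, again with no overlap. ALB was 1.89 higher in shSETD2 than in shCtrl on the log2 scale (adjusted p = 1.19e-20) and 0.74 higher in shMETTL14 (adjusted p = 4.52e-14). AFP RPKM was 5730 and 6149 in shCtrl, 8351 and 9596 in shSETD2, and 5117 and 5417 in shMETTL14. AFP was 0.69 higher in shSETD2 than in shCtrl (adjusted p = 2.16e-10). It was -0.14 in shMETTL14 relative to shCtrl (adjusted p = 0.0328), a call that was lost without replicate 2 of shCtrl at 6 h (-0.09, adjusted p = 0.249), without replicate 1 of shMETTL14 at 6 h (-0.09, adjusted p = 0.278) and with a stricter filter of 5 CPM (-0.03, adjusted p = 0.594).

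GC had 14 and 14 counts in shSETD2 at 6 h, 1 and 1 in shCtrl, and 0 and 0 in shMETTL14. The ratio to shCtrl was 15.5 (95% exact counting interval 3.90 to 134), and against the 0 counts of shMETTL14 the exact 95% lower limit was 7.97-fold (10.5-fold from the observed counts against a floor of 3 counts over that group). At 3 h, with 31 counts against 0 in shCtrl, the exact lower limit was 8.59-fold (11.2-fold against the same floor). AFM had 24 and 11 counts in shCtrl, 14 and 19 in shSETD2, and 15 and 14 in shMETTL14 at 6 h. These values overlapped throughout, and no AFM comparison at 6 h passed (adjusted p from 0.438 to 0.914). At 6 h, with GC again left aside in the comparisons of shSETD2, ALB and AFP were the members that passed between shSETD2 and shCtrl (40.9% of all genes), between shMETTL14 and shCtrl (49.1%) and between the knockdown lines (50.3%).

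Actinomycin D stops new RNA synthesis, and the transcripts that remain are read here as shares of what is left. ALB and AFP made up a larger share of the RNA after 6 h than before the drug in all 3 lines. ALB in shCtrl went from 1630 and 1684 RPKM at 0 h to 1667 and 1601 at 1 h, 1662 and 1615 at 3 h, and 2329 and 2398 at 6 h. The values at 0, 1 and 3 h overlapped, and both libraries at 6 h were above all the others. ALB in shSETD2 was 5474 and 5452, then 5561 and 5594, then 6202 and 6162, then 7981 and 8366 RPKM at the 4 times. In shMETTL14 it was 2600 and 2560, then 2573 and 2636, then 2784 and 2818, then 3806 and 3864 RPKM. In both knockdown lines the 3 h libraries already lay above those at 0 and 1 h.

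AFP in shCtrl was 3743 and 3796 RPKM at 0 h, 4049 and 3894 at 1 h, 4436 and 4531 at 3 h, and 5730 and 6149 at 6 h. In shSETD2 AFP was 6141 and 6124, then 6222 and 6591, then 7416 and 7519, then 8351 and 9596 RPKM. In shMETTL14 AFP was 3294 and 3331, then 3348 and 3525, then 4082 and 4194, then 5117 and 5417 RPKM. Within each line the libraries of the 4 times did not overlap, and every later time lay above the earlier ones. The pair of shSETD2 libraries at 6 h was the widest apart.

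Relative to 0 h, the mean ALB level at 6 h was 143% in shCtrl, 150% in shSETD2 and 149% in shMETTL14 in RPKM, and 182%, 183% and 202% in CPM scaled by TMM. AFP reached 158%, 146% and 159% in RPKM, and 201%, 179% and 216% in CPM. The scales differ because the TMM factors fell from between 1.03 and 1.19 at 0 h to between 0.838 and 0.903 at 6 h, whereas the deposited RPKM uses each library's total alone. On either scale the 6 h mean was above that at 0 h for both genes in each line. ALB in shCtrl was at 98.9% of its 0 h mean in RPKM after 3 h and at 116% in CPM, so whether it had moved by 3 h depends on the scale.

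**Figure D3:**
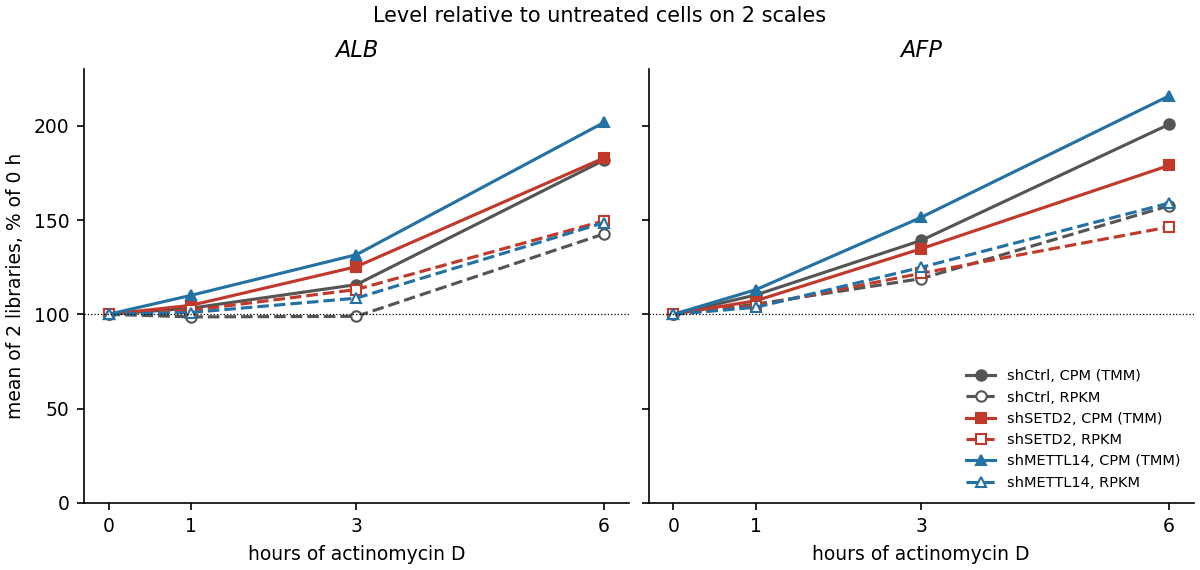
Mean level of ALB (left) and AFP (right) as a percentage of the same line's mean at 0 h (vertical axis) against hours of actinomycin D, for CPM scaled by TMM (filled points, solid lines) and deposited RPKM (open points, dashed lines), each a mean of 2 libraries. All curves end above 100% at 6 h, between 143% and 159% in RPKM and between 179% and 216% in CPM.

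Change under the drug was tested as the slope of log2 CPM on hours. The ALB slope was 0.145 log2 per h in shCtrl (95% interval 0.135 to 0.156), 0.148 in shSETD2 (0.138 to 0.159) and 0.168 in shMETTL14 (0.158 to 0.179). The AFP slope was 0.169 (0.152 to 0.185), 0.143 (0.127 to 0.159) and 0.187 (0.170 to 0.203) in the same order. All 6 slopes passed the test (adjusted p from 3.85e-18 to 1.39e-13, edgeR) and lay between the 88.5 and 96.1 percentiles of all genes, whose median slope was 0.013 in shCtrl, -0.0013 in shSETD2 and 0.011 in shMETTL14. With library size alone, ALB slopes were 0.0865, 0.0990 and 0.0972 and AFP slopes 0.110, 0.0938 and 0.115 log2 per h, with each still past the threshold. That scaling moved the share of higher genes among those that passed in shCtrl from 53.2% to 33.1%.

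The AFM slope was 0.134 log2 per h in shCtrl (adjusted p = 0.0299), 0.130 in shSETD2 (0.0382) and 0.171 in shMETTL14 (0.0126). Its summed counts were lowest at 3 h in shSETD2, at 7 and 5, and in shCtrl, at 7 and 9, so the time course had no single direction there. With library size alone none of the 3 AFM slopes passed (adjusted p = 0.217, 0.197 and 0.133). Without replicate 1 of shCtrl at 6 h the shCtrl slope was 0.0399 (adjusted p = 0.696), and without replicate 2 of shSETD2 at 6 h the shSETD2 slope was 0.0751 (adjusted p = 0.394). The shCtrl call was also lost without replicate 1 or replicate 2 at 0 h or replicate 2 at 1 h (0.109 to 0.124), and the shSETD2 call without replicate 1 or replicate 2 at 0 h, replicate 2 at 1 h or replicate 1 at 3 h (0.118 to 0.141). The shMETTL14 call was lost without replicate 1 at 0 h (0.133, adjusted p = 0.0685) or replicate 2 at 6 h (0.162, adjusted p = 0.0653). GC had 20 and 14 counts at 0 h, 17 and 18 at 1 h, 14 and 17 at 3 h, and 14 and 14 at 6 h in shSETD2. These values overlapped, and the GC slope there did not pass (0.0791 log2 per h, 95% interval -0.0408 to 0.199, adjusted p = 0.227). In each line ALB, AFP and AFM passed with a positive slope. Of all genes, 37.8% in shCtrl, 34.2% in shSETD2 and 38.2% in shMETTL14 did so, and 71.1%, 70.4% and 73.1% passed in either direction. GC is left aside in shCtrl and shMETTL14, where it summed to 5 counts per line.

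**Figure D4:**
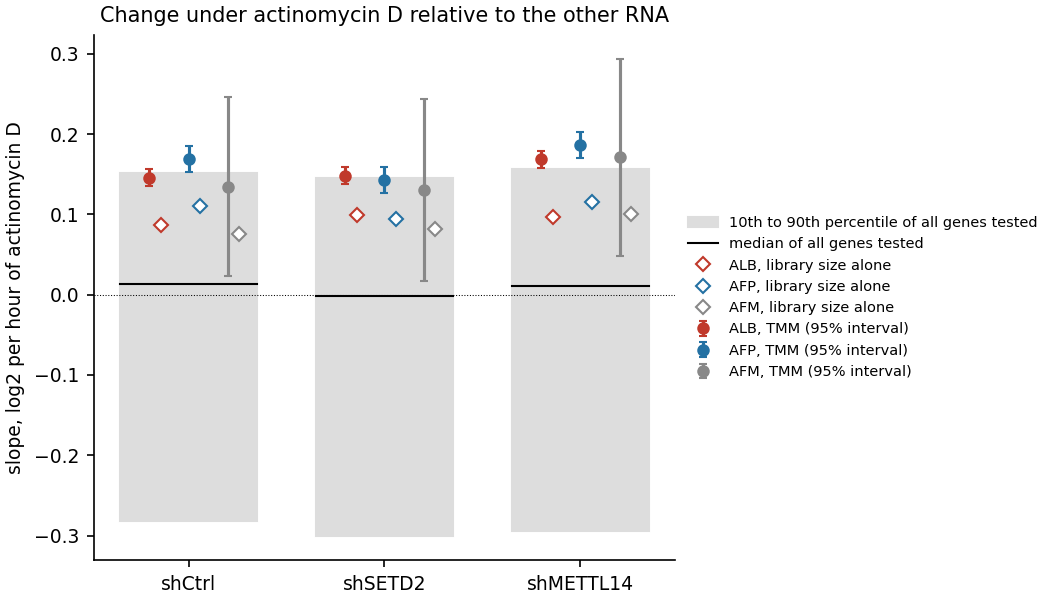
Slope of log2 level per hour of actinomycin D (vertical axis) for ALB, AFP and AFM in each line, from TMM-scaled counts with 95% intervals (filled circles) and from library size alone (open diamonds), over the 10th to 90th percentile band and median of all 14887 genes. Of the 6 ALB and AFP slopes from TMM-scaled counts, 4 lie above the band and 2 (ALB in shCtrl and AFP in shSETD2) just inside its top, and the AFM intervals are several times wider.

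Whether a knockdown altered these slopes was tested as a difference of slopes. For ALB it was 0.0027 log2 per h between shSETD2 and shCtrl (95% interval -0.013 to 0.018, adjusted p = 0.876) and 0.023 between shMETTL14 and shCtrl (0.0077 to 0.038, adjusted p = 0.0776). For AFP it was -0.026 between shSETD2 and shCtrl (-0.049 to -0.0024, adjusted p = 0.171) and 0.018 between shMETTL14 and shCtrl (-0.0056 to 0.041, adjusted p = 0.473). In the main edgeR fit, ALB, AFP and AFM did not pass against shCtrl in either line. Of all genes, 7.94% did for shSETD2 and 5.21% for shMETTL14. GC, with 5 counts over the shCtrl libraries, is left aside. Other settings changed this: sign and call of ALB stayed the same under 6 of 11 for shMETTL14 and 10 of 11 for shSETD2. Those of AFP did so under 10 of 11 for shMETTL14 and 8 of 11 for shSETD2. In the main fit 1 member in each line had an unadjusted p under 0.05, AFP for shSETD2 and ALB for shMETTL14. DESeq2 gave ALB an adjusted p of 0.0579 for shSETD2 and 0.00738 for shMETTL14, and limma on RPKM passed 0 members in either. DESeq2 gave no adjusted p for the slope differences of AFM and GC.

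Between the knockdown lines AFP had a lower slope in shSETD2 than in shMETTL14 (difference -0.044, 95% interval -0.067 to -0.020, adjusted p = 0.0165, edgeR), where 9.61% of all genes passed. ALB (-0.020, adjusted p = 0.0859) and AFM (-0.041, adjusted p = 0.811) did not pass there, and GC is left aside. The AFP call depended on the scaling and on single libraries, as it was lost with library size alone (-0.022, adjusted p = 0.244), with DESeq2 (-0.030, adjusted p = 0.14) and without replicate 1 of shSETD2 at 6 h (-0.026, adjusted p = 0.0683). It was also lost without replicate 1 (-0.034, adjusted p = 0.139) or replicate 2 (-0.036, adjusted p = 0.108) of shMETTL14 at 0 h, and without replicate 2 of shMETTL14 at 6 h (-0.035, adjusted p = 0.135). The ALB difference between shSETD2 and shCtrl was 0.037 (adjusted p = 0.0115) and 0.032 (adjusted p = 0.0269) without replicate 1 or replicate 2 of shCtrl at 0 h. That between shMETTL14 and shCtrl passed without any 1 of the 4 libraries at 0 h, at 0.044 to 0.049 (adjusted p from 0.000897 to 0.00252). No half-life of a member was analysed here.

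The ALB to AFP count ratio changed little over the time course beside the differences between lines. In shCtrl it was 0.455 ± 0.0060, 0.426 ± 0.00033, 0.378 ± 0.013 and 0.412 ± 0.012 at 0, 1, 3 and 6 h (SD, n = 2). In shSETD2 it was 0.922 ± 0.00082, 0.902 ± 0.033, 0.857 ± 0.012 and 0.946 ± 0.061, and in shMETTL14 0.806 ± 0.015, 0.785 ± 0.015, 0.701 ± 0.0074 and 0.754 ± 0.022. The mean was lowest at 3 h in each of the 3 lines, a feature picked out after the values were seen and not tested. Both 3 h libraries of a line lay below those of its other times.

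The other secreted carrier proteins of plasma were examined beside the family, 18 of 19 listed genes being tested. Between shSETD2 and shCtrl at 0 h, 14 were higher and 0 lower (21.6% and 18.9% of all genes), with a median log2 difference of 0.64 against 0.02 for all genes. APOH, a phospholipid binding protein, was 1.39 higher (adjusted p = 2.28e-17), TTR, the thyroxine carrier transthyretin, 1.75 (5.14e-17), and SERPINA6, the cortisol carrier, 1.81 (1.47e-16). ALB at 1.88 lay above these 3 and AFP at 0.86 below them. With library size alone 14 carriers were higher and 1 lower in shSETD2, with a median of 0.48. Between shMETTL14 and shCtrl, 12 were higher and 4 lower (23.1% and 25.1% of all genes; median 0.30 against -0.0062). TTR was 0.91 higher (adjusted p = 3.65e-12), HP, which binds free haemoglobin, 0.90 higher (9.01e-12), and ORM1, the acid glycoprotein orosomucoid, lower (-0.79, 1.12e-11). HP and ORM1 have near-identical copies (HPR and ORM2), so their counts are uncertain. Carriers therefore stood on both sides of shCtrl in shMETTL14, as ALB and AFP did.

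**Figure D5:**
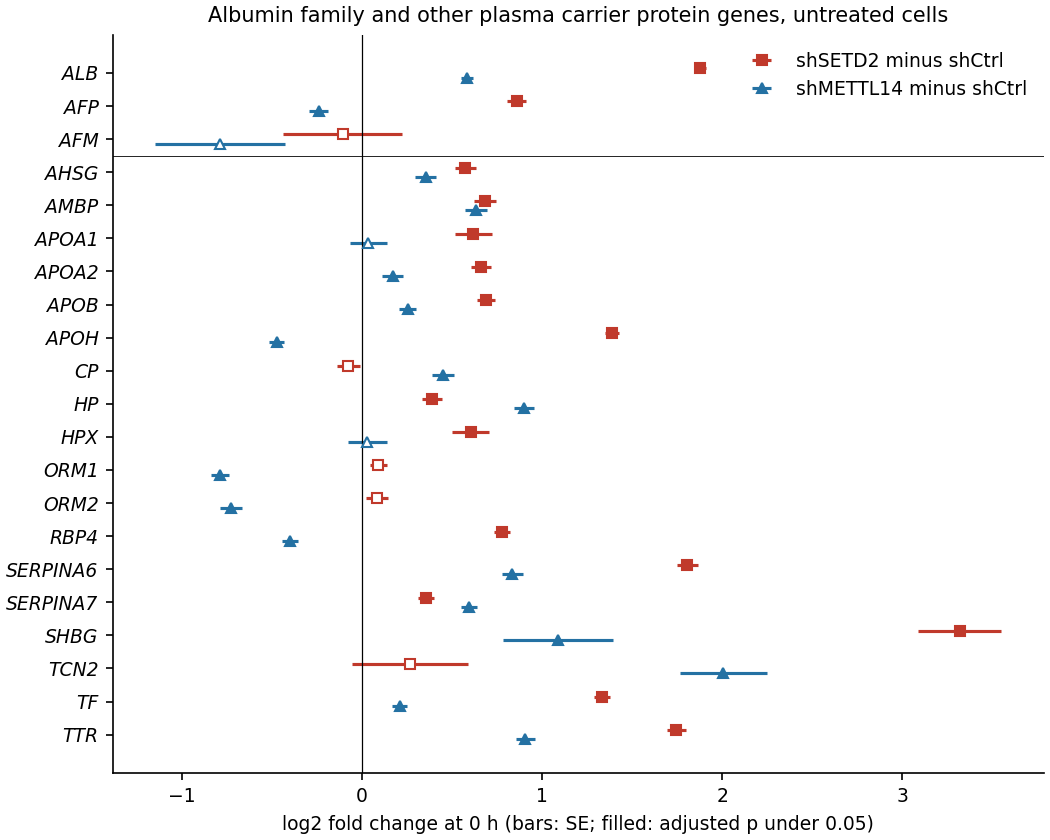
Log2 fold change at 0 h (horizontal axis, with SE) of ALB, AFP and AFM and of the 18 plasma carrier genes tested, for shSETD2 minus shCtrl (squares) and shMETTL14 minus shCtrl (triangles), filled where the adjusted p was under 0.05. ALB lies at 1.88 and 0.58 and AFP at 0.86 and -0.24, while 14 carriers are filled on the right in shSETD2 and 12 on the right and 4 on the left in shMETTL14.

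Under actinomycin D, 17 of the 18 carriers rose and 0 fell in shCtrl, and 18 rose and 0 fell in each knockdown line. Their median slopes were 0.161, 0.169 and 0.185 log2 per h in shCtrl, shSETD2 and shMETTL14, near those of ALB and AFP. RBP4, the retinol carrier, had 0.179, 0.170 and 0.193, and TF, the iron carrier transferrin, 0.166, 0.165 and 0.182 (adjusted p at most 4.77e-16). With library size alone 15, 18 and 18 rose and 0 fell in the same order.

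Genes for transcription factors that bind or regulate the ALB and AFP genes moved the other way after the drug. Of 26 listed and tested, 1 rose and 24 fell in shCtrl, 1 and 23 in shSETD2, and 1 and 24 in shMETTL14, where 33.2%, 36.2% and 34.8% of all genes fell. With library size alone 0 rose and 26, 25 and 26 fell. Among the smallest p were those of FOXA1, a pioneer factor of liver enhancers (-0.66, -0.76 and -0.77 log2 per h), GATA4 (-0.62, -0.59 and -0.72) and FOXA2 (-0.50, -0.49 and -0.52). Before the drug the list was divided, with 9 higher and 8 lower in shSETD2 and 7 higher and 8 lower in shMETTL14 than in shCtrl, where 21.6% of all genes were higher and 18.9% lower in shSETD2, and 23.1% and 25.1% in shMETTL14. With library size alone the split was 5 and 12 in shSETD2 and 8 and 7 in shMETTL14.

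HNF4A, a main activator of hepatocyte genes, was 0.59 higher in shSETD2 (272 against 181 CPM, adjusted p = 2.98e-09), and in shMETTL14 its difference was -0.11 (adjusted p = 0.0748). CEBPB, a C/EBP factor, was lower in both lines (37.6 and 32.5 against 75.3 CPM, adjusted p = 3.71e-09 and 1.51e-10), and CEBPD was higher in both (0.89, adjusted p = 4.23e-06, and 1.29, adjusted p = 5.85e-09). FOXA1 was -0.70 in shMETTL14 (adjusted p = 1.08e-08). ZBTB20 and ZHX2, known repressors of AFP, were mixed. ZBTB20 was -0.43 in shSETD2 (adjusted p = 0.0143) and 0.49 in shMETTL14 (adjusted p = 0.00213), opposite in sign to AFP in each line, and ZHX2 was -0.01 and -0.14 (adjusted p = 0.924 and 0.134). ZBTB20 and ZHX2 were named here for their known roles after their values were seen, and no relation to ALB or AFP was tested.

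The genes beside the family on chromosome 4 differed in direction among themselves. Of 5 tested neighbours, 3 were higher and 1 lower in shSETD2 than in shCtrl (21.6% and 18.9% of all genes). IL8, the chemokine gene, was -1.93 (adjusted p = 1.61e-08), SLC4A4, a bicarbonate transporter gene, 2.02 (0.00124), ANKRD17 0.15 (0.0067) and COX18 0.22 (0.0312). The last 2 passed neither with RLE factors nor with library size alone. Under the latter ANKRD17 was at -0.0047 and COX18 at 0.06. In shMETTL14, RASSF6 was 1.31 (adjusted p = 0.000164), ANKRD17 -0.16 (0.00316) and IL8 -0.55 (0.00527).

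Genes for receptors and handling of albumin and of the GC protein were measured too, 8 of 9 being tested. In shSETD2, 3 were higher and 1 lower than in shCtrl (21.6% and 18.9% of all genes), and with library size alone 2 were higher and 3 lower. SPARC, which binds albumin outside cells, was -0.93 (adjusted p = 3.67e-13). CUBN, the receptor cubilin that takes up albumin and the GC protein in the kidney, was 3.36 from 0.232 CPM in shCtrl. AMN, the partner of cubilin, was 0.54 (0.00412), and FCGRT, which rescues albumin from breakdown, 0.27 (0.0439). FCGRT passed neither with RLE factors (0.22, adjusted p = 0.101) nor with library size alone (0.12, adjusted p = 0.394). In shMETTL14, SPARC was 0.40 (2.03e-07), B2M, the light chain of the FCGRT receptor, 0.21 (0.0017), CUBN 1.96 and DAB2, an adaptor for uptake, -0.45 (8.43e-06). No p is given for CUBN, whose shCtrl level was not far above that of 3 counts (0.0955 to 0.164 CPM). Whether CUBN passed the filter on low counts only through the lines where it was higher was not tested.

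Of the 7 genes of vitamin D metabolism, whose products GC carries, 4 were higher and 1 lower in shSETD2 (21.6% and 18.9% of all genes). DHCR7, which uses up the vitamin D precursor, was 1.12 (adjusted p = 4.81e-12), CYP24A1, which breaks vitamin D down, -0.90 (2.76e-11), and CYP27A1, a hydroxylase, 0.49 (1.05e-05). In shMETTL14, 3 were higher and 1 lower (23.1% and 25.1% of all genes), with CYP24A1 at 0.31 (8.91e-05) and CYP27A1 at -0.25 (0.00796). VDR, the receptor, was among the 3, at 1.97 from 0.163 CPM in shCtrl. No p is given for VDR, as its shCtrl level was near that of 3 counts (0.0955 to 0.164 CPM). Whether VDR passed the filter on low counts only through the line where it was higher was not tested.

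AFP is one of a set of genes of the fetal liver that tumours express again, and 15 others were tested. In shSETD2 9 were higher and 1 lower (21.6% and 18.9% of all genes), with a median of 0.64, among them AKR1B10, an aldo-keto reductase gene (2.04, adjusted p = 1.21e-16), CYP3A7, the fetal cytochrome (2.18, 1.07e-14), and PEG10 (0.64, 1.06e-12). CYP3A7 has close copies, so its counts are uncertain. With library size alone 9 of the 15 were higher and 2 lower in shSETD2. In shMETTL14 6 were higher and 4 lower (23.1% and 25.1% of all genes), with a median of 0.06: PEG10 was 0.80 (2.95e-14), CYP3A7 1.73 (1.18e-12) and GPC3, the glypican used as a liver tumour marker, 0.39 (4.45e-10). AFP stood with the 9 higher genes in shSETD2 and with the 4 lower ones in shMETTL14.

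Markers of other cell types were also read in each line, since lines can differ in them. The summed level of the 5 fibroblast markers at 0 h was 13.2 to 13.5 CPM in shCtrl, 18.5 to 19.2 in shSETD2 and 28.5 to 30.9 in shMETTL14, of which PDGFRB and COL1A1 passed the filter and DCN was at 0. The 5 HEK293T markers summed to 6.55 to 7.23, 10.3 to 10.8 and 11.4 to 11.7 CPM, the 5 blood and immune markers to 2.21 to 2.45, 1.97 to 2.68 and 2.65 to 2.71, and the 3 endothelial markers in the table to 0.277 to 0.310, 0.881 to 0.906 and 1.09 to 1.37. The hepatocyte lineage markers summed to 10105 to 10356, 20125 to 20300 and 11786 to 12096 CPM. SERPINA1 (4785 to 19122 CPM over all libraries) and TF (2908 to 15421) had the highest levels among them. Of these 9 markers, 6 were higher and 2 lower in shSETD2 than in shCtrl at 0 h (21.6% and 18.9% of all genes). In shMETTL14, 4 were higher and 2 lower (23.1% and 25.1% of all genes). The part of any of these markers in the differences of ALB, AFP and GC between lines was not tested.

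The genes whose log2 CPM followed each member most closely over the 24 libraries differed between members. For ALB they were ABCB1 (Pearson r = 0.989), SERPINI1 (0.986), LIPA (0.986), ENPP3 (0.986) and SULT2A1 (0.986). For AFP they were DBI (0.991), PGRMC1 (0.991), CPB2 (0.990), UGT2A3 (0.987) and RDH11 (0.985), and the r between ALB and AFP themselves was 0.851. For GC they were C19orf80 (0.973), GSTA1 (0.969), MEP1A (0.962), PLG (0.957) and AKR1D1 (0.956), and for AFM the highest was 0.823, for WWC2. These values describe 9991 genes over libraries that share 3 lines and 4 times, so they rest on few independent points. GC had 14 to 20 counts in the shSETD2 libraries and at most 2 in any other. Its r values therefore describe little beyond the split of shSETD2 from the other lines, and nothing more is read from them.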

How the data were processed

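RNA of 24 HepG2 libraries, 3 lines by 4 times with 2 replicates each, was analysed from 1 gene table. The read counts per gene are as the authors deposited them; the submitters' processing notes name GRCh37 as the build and list HTSeq 0.6.1p1, TopHat and cutadapt. The sources used here give neither the annotation release nor the strand setting. The deposited RPKM values equal counts scaled by exon length and library total, the totals they imply differing from the count totals by at most 0.000431%. Columns were matched to samples by name.

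For tests on the counts, edgeR 4.0.16 was used under R 4.3.3 (filterByExpr over 12 groups, TMM, robust quasi-likelihood F test, two-sided), 1 mean per group, 12 residual degrees of freedom, and Benjamini-Hochberg adjustment over 14887 genes at 0.05. The biological coefficient of variation was 5.04%, and libraries of a group correlated at 0.988 to 0.996 in log2 CPM. Slopes are least-squares contrasts of group means on hours. Count ratios within libraries were compared by an exact permutation test within times (scipy 1.17.1), and exact counting intervals were taken at 95%. The sources used here do not describe how the replicate cultures were separated, so the p-values cover the spread between these libraries, which may be technical. The scripts were tested on simulated data.

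Alternatives were other scalings (RLE factors, library size with and without the 4 members), filters, DESeq2 1.42.0, limma 3.58.1 on log2(RPKM + 0.1) and log2(RPKM + 1), a replicate block, only the groups compared, other slope definitions and leaving out each library. The members and the 11 gene lists were chosen with earlier results of these data known. Named genes are the members, SETD2 and METTL14, up to 3 genes per list and comparison with the smallest p past the threshold, and for each member the 5 genes of highest Pearson r among those with a mean of at least 5 CPM. Outside this rule, COX18 and FCGRT in shSETD2, B2M in shMETTL14, HNF4A in shMETTL14, ZBTB20, ZHX2 and the markers of other cell types were named after their values were seen. The deposited half-life table was not used here, and some genes counted in the lists are not reported here by name.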

Additional observations from a re-analysis of the deposited data

Results flagged for a closer look

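The slope of AFP under actinomycin D was 0.143 log2 per h in shSETD2 and 0.187 in shMETTL14, a difference of -0.0436 (edgeR, adjusted p = 0.0165). It stands out because the test of the difference itself passed between 2 lines. Under 11 other settings the value ran from -0.0451 to -0.0194, and it lost the threshold under 6 of them, as well as without any of 4 single libraries.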

How the results depend on the processing

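ALB and AFP kept direction and call under every setting run in the 0 h comparisons, at 6 h except AFP between shMETTL14 and shCtrl, and in the slope of each line. The size moved with single libraries left out. At 0 h in shMETTL14, ALB ran from 0.46 to 0.51 (0.58 in full) and AFP from -0.35 to -0.33 (-0.24 in full). In shSETD2, ALB ran from 1.76 to 1.88 (1.88 in full) and AFP from 0.76 to 0.86 (0.86 in full). Differences of slopes were within reach of the scaling, filter and single libraries. AFM and GC are limited by depth and were not tested under the stricter filter. Leaving out 1 h gives the same slopes as 6 h minus 0 h divided by 6. With 1 library left in a group, that library is assumed to vary like the others. For the settings below, the cause was not tested.

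With only the groups compared, 2626 genes passed between shSETD2 and shCtrl at 6 h and 4350 between the knockdown lines, against 6085 and 7481, with fewer samples in the fit, and AFP in shMETTL14 was -0.11 (adjusted p = 0.101). With the stricter filter that value was -0.033, the AFP slope differences were 0.040 (shMETTL14 minus shCtrl) and 0.0052 (shSETD2 minus shCtrl, turned in sign), and those of ALB 0.045 and 0.034. The AFP value of 0.040 and the ALB values of 0.045 and 0.034 passed the threshold under that filter, unlike in the main fit.

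Slope differences of shMETTL14 passed for 775 genes, and for 1222 (library size), 1206 (without the 4 members), 1206 and 1319 (limma, pseudocounts 0.1 and 1) and 1661 (stricter filter). Those of shSETD2 passed for 1182, and for 757 (RLE), 760 (library size), 742 (without the members) and 727 (limma, 0.1). Leaving out single libraries gave 463 to 1147 genes for shMETTL14, 478 to 3827 for shSETD2 and 671 to 3528 between the knockdown lines (1430 in full).

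Between the knockdown lines the AFP slope difference was -0.030 with DESeq2 and -0.030 with RLE, -0.022 with library size, -0.019 without the members, and -0.022 and -0.022 with limma, and that of ALB was 0.0018, 0.0039, 0.0017 and 0.0018 under the last 4, turned in sign, and -0.018 without a filter. For shMETTL14 against shCtrl ALB was 0.029 with DESeq2 and 0.029 with RLE and 0.021 without a filter, and AFP for shSETD2 was -0.025 without a filter. These ALB values for shMETTL14 and this AFP value for shSETD2 passed the threshold, unlike in the main fit, as did that of ALB between the knockdown lines without a filter. The AFP difference between the knockdown lines passed in the main fit but not under the settings listed for it here. Over single libraries left out, ALB ran from 0.019 to 0.049 (shMETTL14 minus shCtrl), -0.0041 to 0.037 (shSETD2 minus shCtrl) and -0.027 to -0.0099 (between the knockdown lines), AFP from 0.0089 to 0.042, -0.044 to 0.0073 and -0.062 to -0.026, and AFP at 6 h in shMETTL14 from -0.19 to -0.090.

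The AFM slope difference of shSETD2 against shCtrl turned to 0.029 (6 h minus 0 h), 0.018 (DESeq2), 0.015 (RLE), 0.0055 (library size), 0.0079 (without the members), and 0.017 and 0.0056 (limma), and ran from -0.065 to 0.090 over single libraries. Between the knockdown lines AFM was 0.00045 with limma (1) and -0.096 to 0.011 over single libraries, and for shMETTL14 -0.024 to 0.13. AFM at 6 h was -0.033 in shSETD2 with library size, -0.30 to 0.63 over single libraries, and -0.66 to 0.27 in shMETTL14. GC slope differences of shSETD2 were 0.0087 and 0.0054 with limma and -0.28 to 0.10 over single libraries, the shCtrl slope -0.0094 to 0.37, and the 0 h difference of shMETTL14 -0.31 to 2.88.

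From 0 h libraries alone, where the smallest p possible does not pass (adjusted p = 0.375), the log2 ALB to AFP ratio differed by 0.83 (shMETTL14 minus shCtrl), 1.02 (shSETD2 minus shCtrl) and 0.19 (between the knockdown lines), ALB to AFM by 1.39, 1.97 and 0.59, and ALB to GC by -0.054, -2.45 and -2.40. With 2 added to each count, ALB to GC passed for shMETTL14 (0.77) and moved to -0.96 for shSETD2 against shCtrl and -1.73 between the knockdown lines, from -2.29 and -2.98. Nothing is read from these ratios to GC, which had at most 2 counts in any shCtrl or shMETTL14 library.

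With the replicate block, 2015 genes passed for the slope difference of shSETD2 and 2205 between the knockdown lines. It brought past the threshold the AFP slope difference of shSETD2 (-0.026), the ALB slope difference of shMETTL14 (0.023) and that of ALB between the knockdown lines (-0.020). Same-numbered deviations from the group means correlated weakly, from -0.084 to 0.20 (median 0.018) over 66 pairs of groups, 9 of them over 0.1. Such values cannot tell a weak effect shared by replicate number from none.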
